A study of Mus musculus with 8 samples.

Results

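The genes described here are 54 genes that drive mitosis or are expressed for it: cyclin-dependent kinase 1 with its cyclins and phosphatases, the Aurora, Polo and NEK kinases, the chromosomal passenger complex, the spindle checkpoint, the anaphase machinery, kinesin motors, kinetochore proteins, spindle and cytokinesis factors, and a few genes of chromosome structure and transcription. They were taken from the gene column of the count table by name, and each of the 54 was found once among the 53700 genes listed. RNA-Seq was performed on mouse Lewis lung carcinoma (LLC) cells. The 4 groups were WT and FIH-KO cells in normoxia (21% O2) and WT and FIH-KO cells in hypoxia (1% O2), with 2 libraries each and no other treatment. FIH-KO cells carried a CRISPR/Cas9 edit in exon 2 of Hif1an, the gene that encodes factor-inhibiting HIF, and were grown out from single cells. How many clones the FIH-KO libraries came from, and whether the 2 libraries of a group came from separate cultures, is not given in the sources used here. P values therefore measure only the spread between libraries, which may be technical, and a difference between genotypes cannot be told apart from a difference between clones.

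FIH hydroxylates an asparagine of HIF-α subunits when oxygen is present, which keeps them from binding the coactivators p300 and CBP. Entry into mitosis is driven by CDK1 bound to cyclin B, whose activity rises when CDC25 phosphatases remove inhibitory phosphates. The checkpoint proteins then hold the anaphase-promoting complex (APC/C) inactive until chromosomes are attached, and the APC/C with its activator CDC20 marks securin and cyclin B for destruction, which frees separase to part the sister chromatids. Most of these genes are transcribed late in the cell cycle, in G2 and M phase, so in bulk RNA fewer cells in those phases and less RNA per cell cannot be told apart.

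Library totals ran from 14519731 to 18177016 counted reads, and 13933 genes passed the filter on low counts and were tested with edgeR. All 54 mitotic genes passed it, with between 175 and 16788 reads in a library. The targeted gene was checked first. Hif1an stood between 82.3 and 90.2 CPM (read counts scaled by library size and TMM factors) in the WT libraries and between 34.8 and 51.0 CPM in the FIH-KO libraries. Vim, Krt8 and Krt18, markers of the line, were expressed in every library (Vim between 3189 and 5442 CPM), whereas Epcam was at 0 in all 8. Of 5 leukocyte markers none passed the filter, and Cd3e and Adgre1 were at 0 in every library. Of 3 endothelial markers Cdh5 passed, at no more than 1.96 CPM. All 4 fibroblast markers passed, and their summed level was 29.8 CPM in WT normoxia, 23.4 in FIH-KO normoxia, 20.9 in WT hypoxia and 13.9 in FIH-KO hypoxia. Most of the sum was Pdgfra, at 6.93 to 27.4 CPM in single libraries, whereas Pdgfrb, Dcn and Col1a1 reached at most 2.12, 4.65 and 1.455 CPM. Unlike the sum, Dcn and Col1a1 were higher in both FIH-KO than in both WT libraries in each oxygen condition. The part of such cells or of Pdgfra in the results was not tested.

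In WT cells in normoxia the 54 genes together held 10490 and 10050 CPM in the 2 libraries. Compared per length of annotated exons, the highest was Top2a, the topoisomerase that untangles sister chromatids, at 109 RPKM (CPM divided by the exon length in kilobases), followed by Cdc20 at 86.0 RPKM. The lowest was the kinesin Kif18a at 4.21 RPKM, and the checkpoint kinase gene Ttk stood at 6.53 RPKM.

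The 2 libraries of FIH-KO hypoxia stood apart from each other in these genes, and this bears on each result in hypoxia. The summed level of the 54 genes was 7079 CPM in replicate 1 and 10390 CPM in replicate 2 of FIH-KO hypoxia. It was 8189 and 8290 CPM in FIH-KO normoxia and 8343 and 8928 CPM in WT hypoxia. All 54 genes were higher in replicate 2 than in replicate 1 of FIH-KO hypoxia, by a median of 0.55 on the log2 scale (range 0.15 to 0.92), while the median over all tested genes was -0.01 and 49.0% of them were higher. In the other groups 6, 26 and 44 of the 54 were higher in replicate 2 (WT normoxia, FIH-KO normoxia and WT hypoxia), with medians of -0.07, 0.00 and 0.09. The gap was largest for Mki67, the proliferation marker Ki-67, at 470 and 891 CPM, and smallest for Pttg1, which encodes securin, at 23.6 and 26.2 CPM.

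Other gene groups differed between replicates too, and not in FIH-KO hypoxia alone. Of 15 S phase genes, such as the MCM helicase genes, 14 were higher in replicate 2 of FIH-KO hypoxia, with a median of 0.59. In WT normoxia, FIH-KO normoxia and WT hypoxia 13, 15 and 3 of the 15 were higher, with medians of 0.08, 0.26 and -0.10. Of 11 HIF target genes 2 were higher in replicate 2 of FIH-KO hypoxia (median -0.36), beside 1, 3 and 0 in the other groups (-0.20, -0.22 and -0.19). Cdkn1a, which encodes the CDK inhibitor p21, stood at 428 CPM in replicate 1 and 284 CPM in replicate 2 of FIH-KO hypoxia and was lower in replicate 2 of all 4 groups. These 3 sets were picked after the gap between the libraries was seen. Which of the libraries is closer to the state of FIH-KO cells in hypoxia was not tested. Results in hypoxia are therefore given below with both libraries and, for counts or medians and the genes called, without each.

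**Figure D1:**
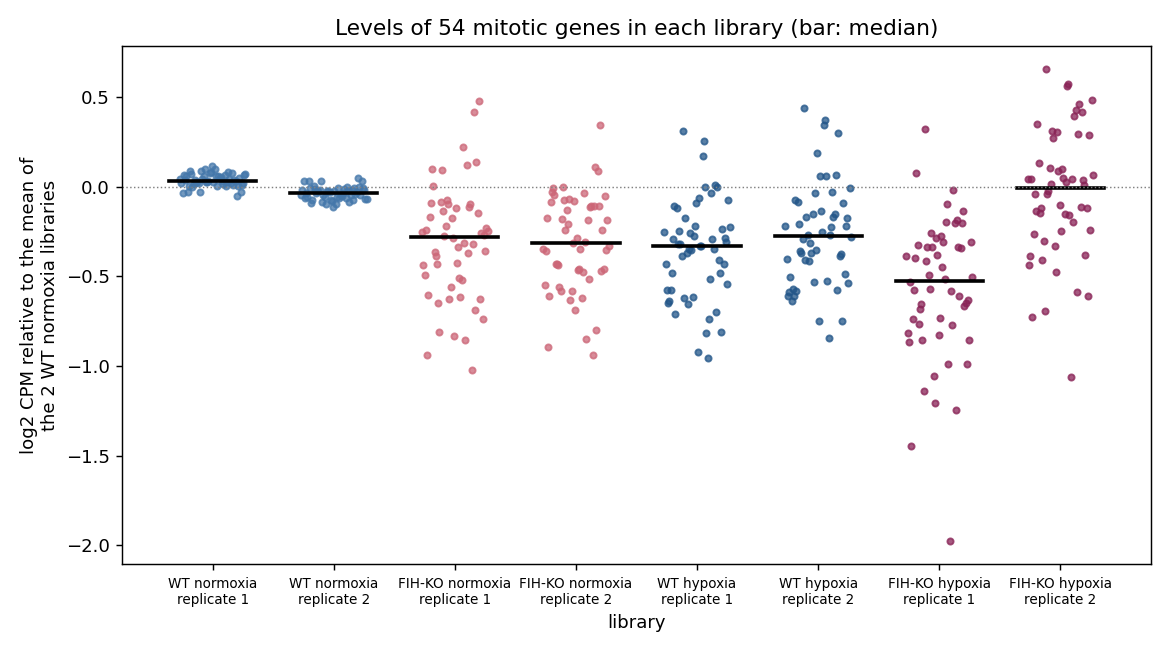
Level of each of the 54 mitotic genes in each library, as log2 CPM relative to the mean of the 2 WT normoxia libraries; each point is a gene and each bar the median of a library. The median was -0.28 and -0.31 in FIH-KO normoxia, -0.33 and -0.27 in WT hypoxia, and -0.53 and -0.01 in replicates 1 and 2 of FIH-KO hypoxia.

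Genes of the G2/M program share control elements in their promoters, which the reference sequence shows directly. The elements searched on both strands were the cell cycle genes homology region (CHR, TTTGAA or TTTAAA) and the CCAAT box (CCAAT), with an E2F site (TTTGGCGC, TTTCCCGC or TTTCGCGC) and the core of a hypoxia-response element (ACGTG or GCGTG) beside them. RefSeq promoter windows for build GRCm38.p6, 250 bases before to 50 bases after a transcription start, were matched by symbol to 44 of the 54 genes, with 47 windows. The genes not matched were Aurkb, Ccna2, Cdc25c, Cdca2, Incenp, Kif20a, Spc24, Tpx2, Foxm1 and Dlgap5.

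A CHR was found in 83.0% of the 47 windows and in 27.6% of all 32851 windows. A CCAAT box was found in 76.6% against 37.4%, and both together in 70.2% against 10.7%. Counted by gene, 36 of the 44 (81.8%) held a CHR, compared with 22.3% of the 9749 genes that were tested here and had a window. The core of a hypoxia-response element was in 68.2% of the 44 genes and in 68.5% of those 9749 genes, and E2F sites were in 3 of the 44. A match is a run of letters and no measure of binding.

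The 6 promoters below show the range among genes with results below, from copies of both elements to neither. Each is given 5′ to 3′ along the gene, from 250 bases before to 30 bases after the RefSeq start, at its exact match in GRCm39, with CHR and CCAAT letters on either strand in capitals.
Cdk1, chr10:69188713-69188992, minus strand: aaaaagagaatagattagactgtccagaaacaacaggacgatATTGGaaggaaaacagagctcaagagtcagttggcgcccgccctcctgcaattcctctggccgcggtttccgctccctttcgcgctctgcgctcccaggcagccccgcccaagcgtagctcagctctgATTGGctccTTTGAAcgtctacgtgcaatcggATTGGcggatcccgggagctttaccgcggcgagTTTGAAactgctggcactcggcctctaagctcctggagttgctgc
Ccnb1, chr13:100922965-100923244, minus strand: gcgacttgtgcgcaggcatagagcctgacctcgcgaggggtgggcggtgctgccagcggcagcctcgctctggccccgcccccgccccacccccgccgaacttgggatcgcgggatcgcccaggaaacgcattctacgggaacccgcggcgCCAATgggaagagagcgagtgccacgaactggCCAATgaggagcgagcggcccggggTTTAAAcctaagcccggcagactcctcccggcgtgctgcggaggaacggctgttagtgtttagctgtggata
Cdc20, chr4:118294511-118294790, minus strand: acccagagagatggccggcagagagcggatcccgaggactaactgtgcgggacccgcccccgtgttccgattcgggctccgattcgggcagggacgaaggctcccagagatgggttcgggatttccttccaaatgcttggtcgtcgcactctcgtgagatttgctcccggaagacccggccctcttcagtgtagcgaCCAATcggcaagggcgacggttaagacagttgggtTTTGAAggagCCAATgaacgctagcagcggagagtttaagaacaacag
Ect2, chr3:27207974-27208253, minus strand: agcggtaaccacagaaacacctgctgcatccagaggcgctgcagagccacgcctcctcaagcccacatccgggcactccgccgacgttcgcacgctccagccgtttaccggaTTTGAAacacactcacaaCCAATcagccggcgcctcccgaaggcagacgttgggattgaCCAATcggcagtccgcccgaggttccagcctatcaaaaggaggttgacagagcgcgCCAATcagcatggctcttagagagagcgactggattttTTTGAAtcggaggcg
Bub1, chr2:127673750-127674029, minus strand: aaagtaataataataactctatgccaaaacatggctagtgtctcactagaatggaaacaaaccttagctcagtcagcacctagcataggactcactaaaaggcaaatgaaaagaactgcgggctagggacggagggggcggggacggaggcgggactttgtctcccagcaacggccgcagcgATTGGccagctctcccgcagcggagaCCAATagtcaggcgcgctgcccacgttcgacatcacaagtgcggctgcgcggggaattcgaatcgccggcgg
Pttg1, chr11:43316779-43317058, minus strand: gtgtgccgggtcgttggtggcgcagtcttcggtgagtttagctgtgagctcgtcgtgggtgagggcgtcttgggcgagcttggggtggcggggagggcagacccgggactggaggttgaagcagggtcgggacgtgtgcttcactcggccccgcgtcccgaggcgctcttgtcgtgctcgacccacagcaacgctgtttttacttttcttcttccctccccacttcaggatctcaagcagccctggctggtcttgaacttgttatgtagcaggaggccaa
Cdk1, Ccnb1 and Cdc20, the central kinase, its cyclin and the APC/C activator, each hold a CHR and at least 2 CCAAT boxes, and in Cdk1 the CHR copies begin 71 and 15 bases before the start. Ect2, the gene that fell most in FIH-KO cells in normoxia, holds 2 CHR copies and 3 CCAAT boxes in the window shown, and 1 of the CHR copies begins 16 bases after the start. Another RefSeq window of Ect2, with a start further upstream, is not shown. Bub1, which rose with hypoxia in both genotypes, holds 2 CCAAT boxes and no CHR letters, and the window of Pttg1, the gene that was higher in FIH-KO cells in both oxygen conditions, holds neither. The RefSeq start used lies 4192 bases inside the annotated gene for Pttg1 and 47853 bases inside it for Cdk1, and at most 122 bases inside it for the other 4 genes. Among the 44 genes, the median log2 fold change of FIH-KO over WT in normoxia was -0.27 for the 36 with a CHR and -0.19 for the 8 without. The order was the opposite for hypoxia over normoxia in WT cells, at -0.30 with and -0.43 without.

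The first comparison asked how the mitotic genes differed between FIH-KO and WT cells in normoxia. Of the 54, 18 fell and 1 rose at an adjusted p under 0.05 (edgeR's quasi-likelihood test, Benjamini-Hochberg over all 13933 genes), and 35 did not pass. That is 33.3% lower and 1.85% higher, beside 13.0% of all tested genes lower and 15.2% higher. The median log2 fold change was -0.27, with 48 of 54 values below 0, and the median over all tested genes was 0.00. In 44 of the genes both FIH-KO libraries lay below both WT libraries and in 3 they lay above, where 34.8% and 34.6% of all tested genes did so.

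Ect2 (ENSMUSG00000027699.20, chromosome 3, 27151371 to 27208029 in GRCm39) encodes the exchange factor that activates RhoA at the cleavage furrow. It stood at 189 and 178 CPM in WT and at 90.4 and 95.7 CPM in FIH-KO normoxia, so that both FIH-KO libraries were far below both WT libraries. Its log2 fold change was -0.98 with a standard error (SE) of 0.17 (adjusted p = 0.0015, edgeR). Ccna2, the gene of cyclin A2, had 299 and 285 CPM in WT against 152 and 157 CPM in FIH-KO cells, a change of -0.92 (SE 0.18, adjusted p = 0.0027). Spc24, a subunit of the NDC80 complex that ties kinetochores to microtubules, had 43.4 and 42.5 CPM against 23.8 and 23.8 CPM (-0.85, SE 0.22, adjusted p = 0.012). The other subunits of that complex, given here after their values were seen, had values of -0.31 (Nuf2), -0.02 (Spc25) and 0.10 (Ndc80), and none of them passed.

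Among the motors, all 10 kinesins had values below 0 and 4 fell. Kif20b, a kinesin of the spindle midzone, stood at 170 and 146 CPM in WT and 88.7 and 97.7 CPM in FIH-KO normoxia (-0.76, SE 0.19, adjusted p = 0.012). Kif11, the motor that pushes the spindle poles apart, stood at 277 and 267 CPM against 176 and 175 CPM (-0.63, SE 0.18, adjusted p = 0.021), and the others that fell were Kif15 and Kif23. Cenpe, a motor at the kinetochore that carries chromosomes to the equator, had 232 and 213 CPM against 145 and 145 CPM (-0.62, SE 0.15, adjusted p = 0.010). Hmmr, which binds spindle microtubules, had 161 and 159 CPM against 99.2 and 91.8 CPM (-0.74, SE 0.16, adjusted p = 0.0041). In each of these genes the WT and FIH-KO libraries did not overlap.

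All 4 genes of the chromosomal passenger complex, which corrects faulty attachments, fell, with Aurkb, plotted among the kinases, counted here too. Incenp, its scaffold, stood at 243 and 235 CPM in WT and at 136 and 160 CPM in FIH-KO normoxia (-0.69, SE 0.14, adjusted p = 0.0037). Aurkb, its kinase, stood at 154 and 150 CPM against 112 and 104 CPM (-0.49, SE 0.13, adjusted p = 0.012). Birc5 (survivin) and Cdca8 (borealin) had values of -0.60 and -0.43. None of the 5 spindle checkpoint genes passed, also at an unadjusted p under 0.05, and their values ran from -0.26 for Mad2l1 to 0.05 for Bub1b, whose test gave an SE of 0.13 and an adjusted p of 0.83. The chromosomal passenger and checkpoint genes thus differed in their counts of calls, and that difference was not tested.

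Of the kinases and cyclins of mitotic entry, some were called lower and some were not, and differences between these genes were not tested. Ccnb1, the gene of cyclin B1, fell by 0.61 (SE 0.14, adjusted p = 0.0068, edgeR), from 265 and 244 CPM to 167 and 167 CPM. Its partner Cdk1 had 248 and 227 CPM in WT and 201 and 211 CPM in FIH-KO cells, a value of -0.21 (SE 0.15, adjusted p = 0.35). Plk1, the Polo kinase of mitosis, fell from 163 and 171 CPM to 119 and 130 CPM (-0.42, SE 0.14, adjusted p = 0.039), whereas Aurka, the kinase of the spindle poles, had a value of -0.30 (SE 0.13, adjusted p = 0.12). The call of Plk1 was lost without any single library other than those of FIH-KO hypoxia (-0.52 to -0.38). Cdc20 stood at 168 and 167 CPM against 158 and 164 CPM (-0.06, SE 0.13, adjusted p = 0.77).

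Foxm1, a transcription factor that activates G2/M genes, fell from 156 and 163 CPM to 95.9 and 116 CPM (-0.59, SE 0.14, adjusted p = 0.0073, edgeR). Cdca3, a trigger of mitotic entry, stood at 126 and 123 CPM in WT and at 95.2 and 92.5 CPM in FIH-KO cells, without overlap, but its value of -0.41 did not pass (SE 0.15, adjusted p = 0.063). Top2a was at -0.44 (SE 0.17, adjusted p = 0.074) and Mki67 at -0.15 (SE 0.22, adjusted p = 0.64). The remaining genes called lower were Cenpa, the histone that marks centromeres, and Espl1.

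Espl1 and Pttg1 encode separase and securin, an enzyme and the inhibitor that binds it. Espl1 (ENSMUSG00000058290.5, chromosome 15, 102204701 to 102233535) stood at 200 and 198 CPM in WT and at 129 and 144 CPM in FIH-KO normoxia, a log2 fold change of -0.55 (adjusted p = 0.0057, edgeR). Pttg1 (ENSMUSG00000020415.17, chromosome 11, 43311071 to 43321000) stood at 25.1 and 26.9 CPM in WT and at 36.2 and 32.9 CPM in FIH-KO normoxia. It rose by 0.41 (SE 0.14, adjusted p = 0.041) and was the only member to do so, and the call was not made by DESeq2 (adjusted p = 0.060) nor in edgeR without any 1 of the 6 libraries other than those of FIH-KO hypoxia, where the values ran from 0.32 to 0.45. The FIH-KO libraries were thus lower for the enzyme and higher for its inhibitor.

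The number of genes called lower in normoxia depended on which library was left out, with the range given at the end. The FIH-KO hypoxia libraries enter this fit through the shared estimate of the spread, and the highest count was reached without replicate 1 of that group. Without FIH-KO hypoxia replicates 1 and 2, Cdca3 was at -0.43 and -0.41 and Top2a at -0.47 and -0.44, near their main values. Whether a gene near the threshold was called thus depended on that shared spread. Without FIH-KO hypoxia replicates 1 and 2 the median in normoxia was -0.30 and -0.27, beside -0.03 and -0.004 over all tested genes. The median over the 54 genes stayed between -0.36 and -0.24.

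In hypoxia, 6 genes were lower and 4 were higher in FIH-KO than in WT cells and 44 did not pass. These are 11.1% and 7.41% of the members, beside 13.9% and 14.1% of all tested genes, and the median was 0.09 (-0.03 over all tested genes). In 12 genes both FIH-KO libraries lay below both WT libraries and in 10 above, beside 32.5% and 29.1% of all tested genes. All 6 genes that were lower had also fallen in normoxia: Ect2, Incenp, Foxm1, Hmmr, Cenpe and Espl1. Of the 4 that were higher, Pttg1 had also been higher in normoxia, and Nusap1, Cdc25c and Ube2c had not been called there.

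Ect2 had 144 and 165 CPM in WT hypoxia and 77.5 and 122 CPM in FIH-KO hypoxia (-0.63, SE 0.17, adjusted p = 0.017, edgeR). Incenp (-0.56, SE 0.14, adjusted p = 0.012) stood at 183 and 195 CPM against 108 and 148 CPM. Foxm1 (-0.53, SE 0.14, adjusted p = 0.013) stood at 131 and 137 CPM against 80.5 and 105 CPM. The groups did not overlap in these 3 genes. Hmmr, Cenpe and Espl1 had values of -0.50 (SE 0.15, adjusted p = 0.031), -0.48 (SE 0.15, adjusted p = 0.033) and -0.35 (SE 0.12, adjusted p = 0.046). Without FIH-KO hypoxia replicate 1 none of the 6 passed, with values from -0.32 for Foxm1 to -0.18 for Espl1. Without replicate 2 all 6 passed, with values from -0.99 for Ect2 to -0.50 for Espl1.

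Pttg1 stood at 14.8 and 15.4 CPM in WT hypoxia and at 23.6 and 26.2 CPM in FIH-KO hypoxia, a log2 fold change of 0.72 (SE 0.14, adjusted p = 0.003, edgeR). It passed without either FIH-KO hypoxia library, at 0.83 without replicate 1 (adjusted p = 0.0028) and at 0.65 without replicate 2 (adjusted p = 0.014), and was the only one of the 10 called genes to do so. Nusap1, which bundles spindle microtubules, stood at 60.2 and 65.3 CPM against 77.4 and 134 CPM (0.75, SE 0.20, adjusted p = 0.017). Cdc25c, a phosphatase that activates CDK1, stood at 25.6 and 28.1 CPM against 33.4 and 46.0 CPM (0.56, SE 0.16, adjusted p = 0.019). Ube2c, the ubiquitin-conjugating enzyme of the APC/C, stood at 106 and 114 CPM against 128 and 151 CPM (0.35, SE 0.11, adjusted p = 0.036). The groups did not overlap in any of the 4, but without replicate 2 the last 3 had values of 0.31, 0.32 and 0.23 and did not pass.

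Several kinases and cyclins had values of opposite sign without one or the other FIH-KO hypoxia library, among them Aurka, Aurkb, Plk1 and Ccnb1, while Cdk1 was above 0 whichever was left out (0.70 and 0.09) and Ccna2 below 0 (-0.11 and -0.87). Ccnb1 had 171 and 164 CPM in WT hypoxia and 152 and 212 CPM in FIH-KO hypoxia, one library below and one above, and a value of 0.12 (SE 0.14, adjusted p = 0.56, edgeR). Aurkb had a value of -0.20 (SE 0.13, adjusted p = 0.27), Plk1 of -0.01 (SE 0.14, adjusted p = 0.95) and Aurka of 0.08 (SE 0.13, adjusted p = 0.70). Cdk1 stood at 151 and 158 CPM against 164 and 245 CPM (0.40, SE 0.16, adjusted p = 0.073). Cdc20 and Bub1b had values of 0.18 (SE 0.13, adjusted p = 0.33) and 0.30 (SE 0.13, adjusted p = 0.12), and Mki67 of 0.14 (SE 0.22, adjusted p = 0.67). Cdca3 and Top2a had values of -0.11 (SE 0.15, adjusted p = 0.63) and -0.09 (SE 0.17, adjusted p = 0.73).

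Over the 54 genes, the hypoxia comparison gave 27 higher and 0 lower, with a median of 0.34, without FIH-KO hypoxia replicate 1. It gave 1 higher and 16 lower, with a median of -0.20, without replicate 2. In those fits 14.1% and 11.3% of all tested genes were called higher, 11.2% and 10.6% lower, and their medians were -0.02 and -0.03. The median is therefore not given a direction here.

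**Figure D2:**
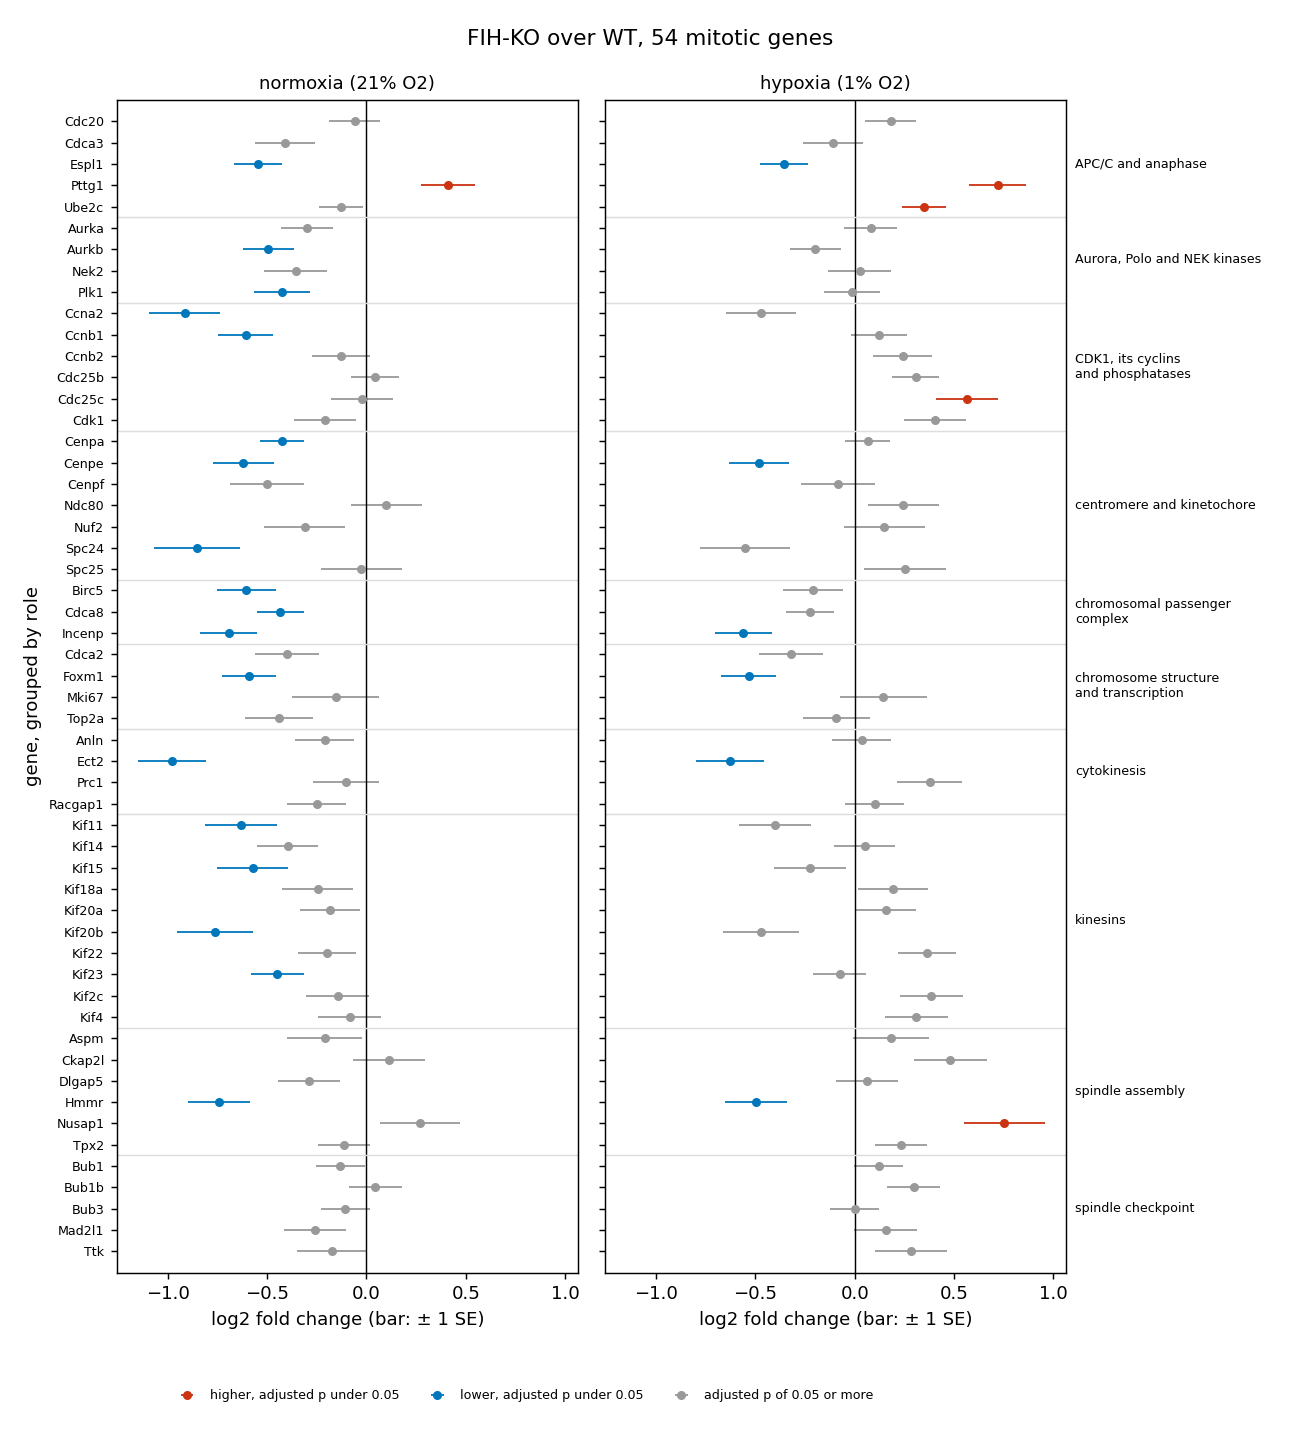
Log2 fold change of FIH-KO over WT for each of the 54 genes, in normoxia on the left and hypoxia on the right, with bars of 1 standard error and genes grouped by role; colours mark an adjusted p under 0.05 in edgeR. In normoxia 18 genes are marked lower and 1 higher, and in hypoxia 6 and 4.

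Whether the effect of FIH-KO differed between the oxygen conditions was tested by the difference of the 2 fold changes. None of the 54 genes passed, nor did any of the 13933 tested genes in edgeR (0.0% higher and 0.0% lower), while 7 members (13.0%) and 925 genes (6.64%) had an unadjusted p under 0.05 and DESeq2 called 35 genes and 0 members. All 54 values were above 0, with a range from 0.06 for Foxm1 to 0.73 for Ccnb1 (adjusted p = 0.45, edgeR). Their median was 0.35, beside -0.02 over all tested genes. Without FIH-KO hypoxia replicate 1 the median was 0.67, beside 0.03 over all tested genes. Without replicate 2 the median was 0.06, beside -0.02 over all tested genes, and 34 of 54 values were above 0. A different response of the 54 genes to FIH loss at 21% and 1% O2 was thus not shown.

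The genes were also compared with each other within a library. Each gene was set against the median of the 54 in the same library, which removes what the 54 shared in that library. On that relative log2 scale 19 genes were lower in FIH-KO than in WT cells in both oxygen conditions, 30 were higher in both and 5 were lower in normoxia and higher in hypoxia. Without that step, 27 of 54 had the same sign in both, beside 78.6% of all tested genes. The share of all tested genes with the same sign on the relative scale was not computed, so these counts are not compared. Ect2 was between 0.22 and 0.46 above the median of the 54 in the 4 WT libraries and between -0.42 and -0.22 relative to it in the 4 FIH-KO libraries.

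On the relative scale all 4 FIH-KO libraries lay below all 4 WT libraries for Ccna2, Cdca2, Birc5, Incenp, Kif11 and Ect2. They lay above for 12 genes: Cdk1, Cdc25b, Cdc25c, Ttk, Kif2c, Kif4, Spc25, Prc1, Nusap1, Ckap2l, Ube2c and Dlgap5. Read against the same median of the 54, 4.0% of all tested genes lay below in this way and 15.4% above. Pttg1 had the largest relative gap in both conditions (0.76 in normoxia and 0.79 in hypoxia), although its libraries overlapped across the oxygen conditions. On the plain CPM scale 9 genes were lower in all 4 FIH-KO libraries than in any WT library, and 0 were higher, beside 12.6% and 13.3% of all tested genes. These 9 were Aurkb, Ccna2, Cdca2, Cdca8, Incenp, Ect2, Hmmr, Espl1 and Foxm1.

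**Figure D3:**
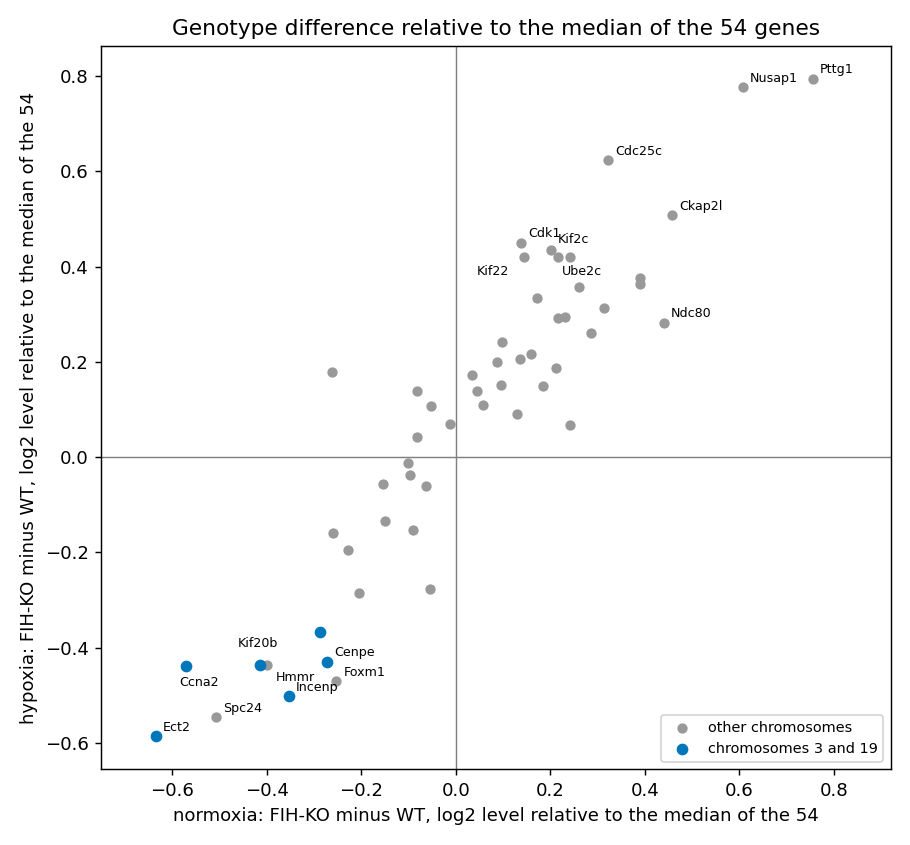
Genotype difference of each gene after its level was set relative to the median of the 54 in each library, with normoxia on the horizontal and hypoxia on the vertical axis (log2, mean of the 2 FIH-KO libraries minus mean of the 2 WT libraries). Of the 54 genes 49 lie at the lower left or upper right of the zero lines, with Ect2 at -0.63 and -0.59 and Pttg1 at 0.76 and 0.79.

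Location in the genome moved with some of these values. Across chromosomes 3 and 19, which were picked after their values were seen and of which 19 also carries Hif1an, genes as a whole were lower in FIH-KO cells in normoxia: the median over 1159 tested genes was -0.37 and 37.5% of them were called lower. The 6 members there, Ccna2, Cenpe and Ect2 on chromosome 3 and Incenp, Kif11 and Kif20b on chromosome 19, all fell, with a median of -0.73. Over the other 48 members the median was -0.23 with 12 lower and 1 higher, beside a median of 0.03 and 10.8% lower among the 12739 tested genes of other chromosomes. The 10 members on chromosome 2, where the median of all tested genes was 0.23, had a median of -0.07 and none was called. In hypoxia the 6 members had a median of -0.48, as against -0.43 over all tested genes of the 2 chromosomes. Of the 6, 3 were lower, beside 39.2% of those genes. The other 48 had a median of 0.13, beside -0.004 over the tested genes of other chromosomes. That median was not computed without each FIH-KO hypoxia library and is not given a direction. For the 6, the median in hypoxia was -0.15 without FIH-KO hypoxia replicate 1 and -0.84 without replicate 2. Their median in normoxia was -0.69 without FIH-KO normoxia replicate 1 or WT normoxia replicate 1. It was -0.85 without FIH-KO normoxia replicate 2 and -0.82 without WT normoxia replicate 2. Not all 6 were called in these fits. The part of a shift of whole chromosomes in the values of these 6 genes was not tested.

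**Figure D4:**
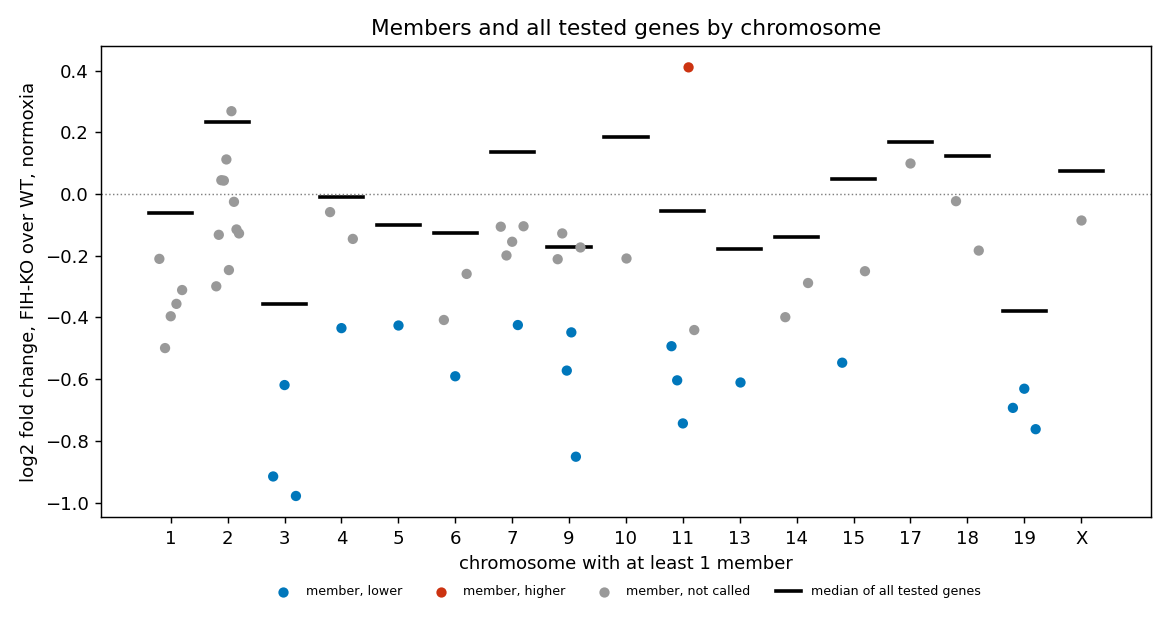
Log2 fold change of FIH-KO over WT in normoxia for the 54 genes by chromosome (points) and the median of all tested genes of each chromosome (bars). All 6 points on chromosomes 3 and 19 are marked lower and lie below the bars of those chromosomes, at -0.36 and -0.38.

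The next comparison asked how the genes responded to hypoxia in each genotype. In WT cells 19 genes fell and 1 rose, or 35.2% and 1.85% of the members, beside 15.5% and 16.9% of all tested genes. The median was -0.31 (0.00 over all tested genes) and 47 values were below 0. Both hypoxia libraries lay below both normoxia libraries in 43 genes and above in 3, beside 35.6% and 35.2% of all tested genes. WT normoxia serves as the reference both here and for FIH-KO cells in normoxia, so the similar falls in the 2 comparisons are not independent.

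Spc24 fell most, from 43.4 and 42.5 CPM to 22.2 and 24.0 CPM (-0.90, SE 0.22, adjusted p = 0.008, edgeR). Kif22, a kinesin that binds chromosome arms, went from 138 and 133 CPM to 71.4 and 80.6 CPM (-0.83, SE 0.15, adjusted p = 0.0014). Pttg1 went from 25.1 and 26.9 CPM to 14.8 and 15.4 CPM (-0.78, SE 0.14, adjusted p = 0.0016). Nuf2 (-0.66, SE 0.20, adjusted p = 0.026), Cdc25c (-0.65, SE 0.16, adjusted p = 0.0085) and Nusap1 (-0.64, SE 0.20, adjusted p = 0.032) also fell. In each of these 6 genes the 2 hypoxia libraries lay below the 2 normoxia libraries.

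In WT cells 5 of the 6 genes in the group of CDK1, its cyclins and phosphatases fell. Cdk1 went from 248 and 227 CPM in normoxia to 151 and 158 CPM in hypoxia (-0.62, SE 0.16, adjusted p = 0.0099, edgeR). Ccnb1 had a value of -0.61 (SE 0.14, adjusted p = 0.0062), and Ccna2, Ccnb2 and Cdc25c were the others, while Cdc25b had a value of -0.09. Plk1, Aurkb and Nek2 fell as well, 3 of the 4 genes of their group, and so did Cdc20, Ube2c and Pttg1 of the 5 anaphase genes. Of the 4 genes of chromosome structure and transcription none passed, with all 4 values below 0 and a median of -0.25.

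Bub1 (ENSMUSG00000027379.14, chromosome 2, 127643036 to 127673806), a checkpoint kinase of the kinetochore, was the only member that rose in WT cells. It stood at 193 and 188 CPM in normoxia and 235 and 258 CPM in hypoxia (0.38, SE 0.12, adjusted p = 0.036, edgeR), and this call was lost without any 1 of the libraries other than those of FIH-KO hypoxia (0.30 to 0.40). Bub1b, which encodes its relative BUBR1, fell from 293 and 306 CPM to 194 and 226 CPM (-0.51), so that these 2 checkpoint genes changed in opposite directions. In FIH-KO cells Bub1 went from 180 and 168 CPM to 237 and 299 CPM (0.63, SE 0.12, adjusted p = 0.0054), and it passed there without FIH-KO hypoxia replicate 1 (0.81) and without replicate 2 (0.45).

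In FIH-KO cells only Bub1 and Cenpf rose and only Pttg1 fell, or 3.7% and 1.85% of the members, beside 8.84% and 8.0% of all tested genes. Cenpf, a large kinetochore protein of G2 and M phase, stood at 207 and 214 CPM in normoxia and 259 and 438 CPM in hypoxia (0.73, SE 0.19, adjusted p = 0.020, edgeR), and did not pass without replicate 2 (0.30). Pttg1 went from 36.2 and 32.9 CPM to 23.6 and 26.2 CPM (-0.47, SE 0.14, adjusted p = 0.034) and did not pass without replicate 1 (-0.37). The median over the 54 genes was 0.03 (-0.03 over all tested genes). The hypoxia libraries lay above the normoxia libraries in 7 genes and below in 4, beside 25.9% and 29.3% of all tested genes.

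The FIH-KO median again turned on the library. Without FIH-KO hypoxia replicate 1 it was 0.30, beside -0.01 over all tested genes. Without replicate 2 it was -0.26, beside -0.03 over all tested genes. In WT cells the median without FIH-KO hypoxia replicates 1 and 2 was -0.35 and -0.31, beside -0.03 and -0.0007 over all tested genes. The number of genes that fell in WT cells also depended on the library left out, with the range given at the end. The WT median moved only between -0.39 and -0.31.

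**Figure D5:**
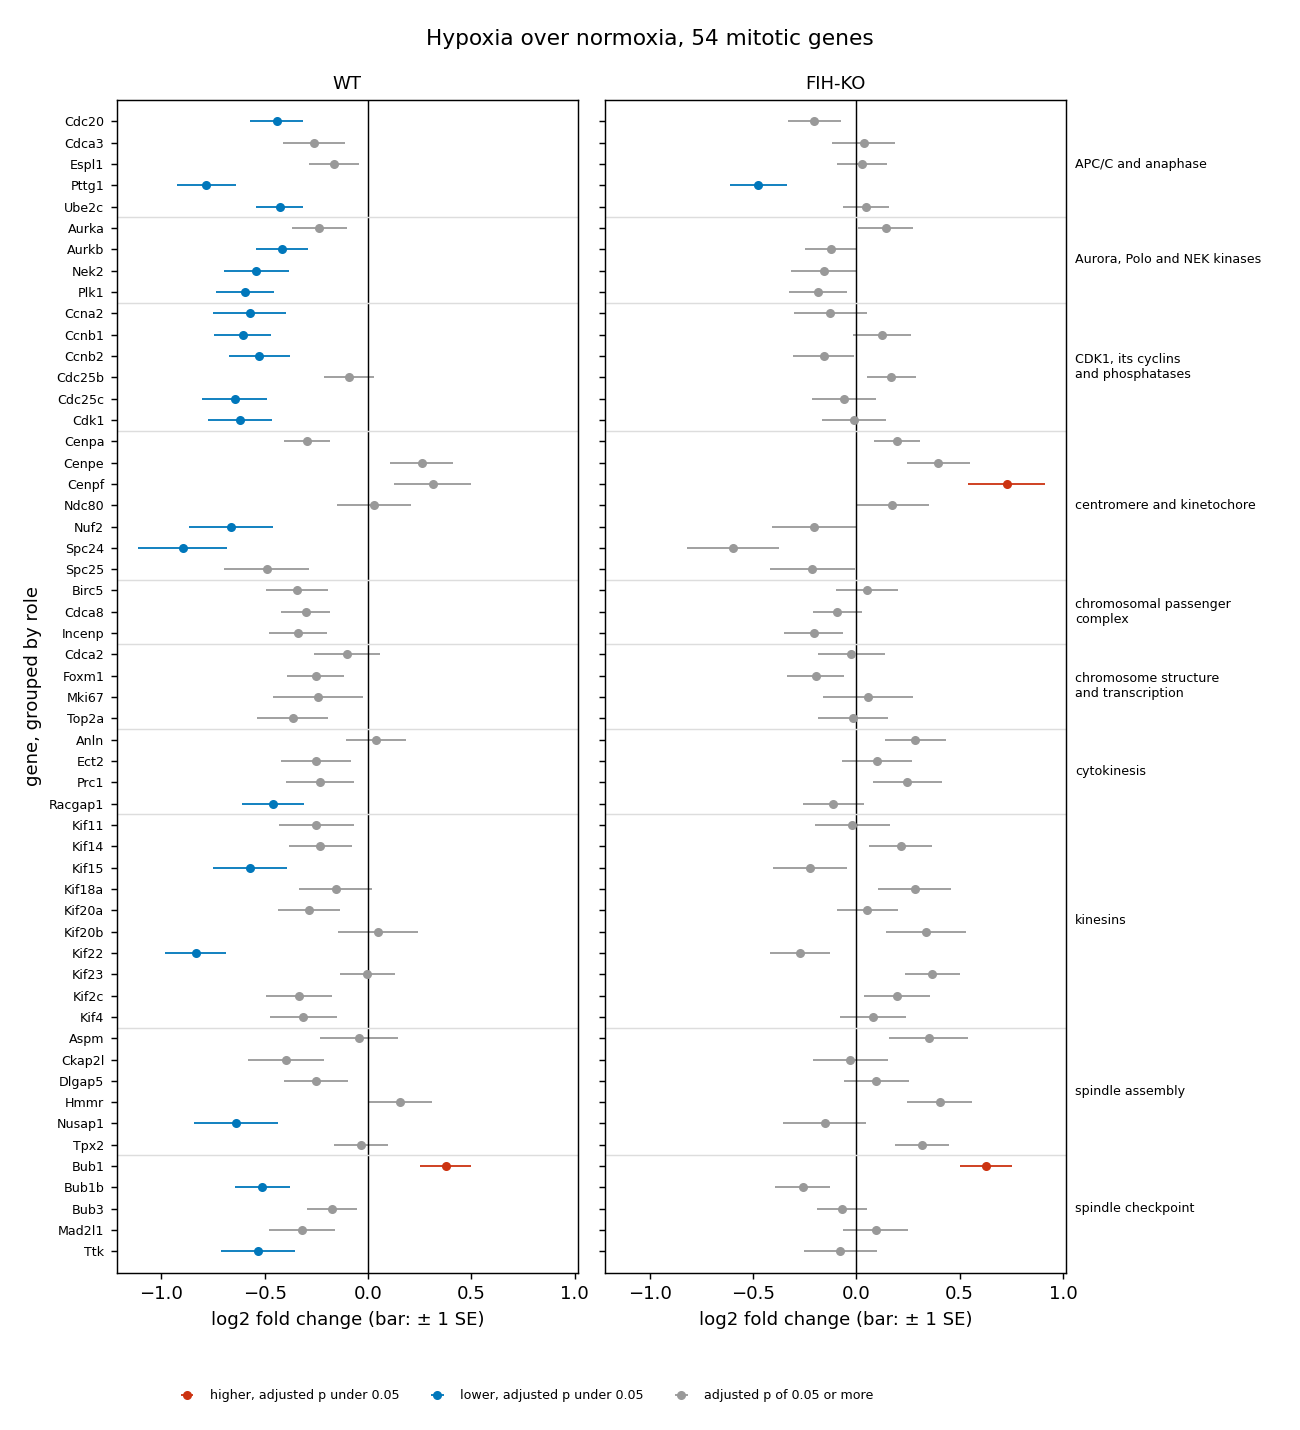
Log2 fold change of hypoxia over normoxia for each of the 54 genes, in WT cells on the left and FIH-KO cells on the right, with bars of 1 standard error and genes grouped by role; colours mark an adjusted p under 0.05 in edgeR. In WT cells 19 genes are marked lower and Bub1 higher, and in FIH-KO cells Pttg1 lower and Bub1 and Cenpf higher.

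Genes around the 54 were read from 5 lists of 123 other mitotic genes, of which 122 were tested. In normoxia 28 were lower and 6 higher in FIH-KO cells (23.0% and 4.92%, beside 13.0% and 15.2% of all tested genes), with a median of -0.22. In hypoxia 21 were lower and 4 higher (17.2% and 3.28%, beside 13.9% and 14.1%), with a median of -0.07. That median was 0.16 without FIH-KO hypoxia replicate 1 and -0.34 without replicate 2, beside -0.02 and -0.03 over all tested genes. With hypoxia 23 fell and 5 rose in WT cells (18.9% and 4.1%, beside 15.5% and 16.9%). In FIH-KO cells 9 fell and 2 rose (7.38% and 1.64%, beside 8.0% and 8.84%), with a median of -0.05. The FIH-KO median was 0.14 without FIH-KO hypoxia replicate 1 and -0.22 without replicate 2, beside -0.01 and -0.03 over all tested genes.

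Of the 21 tested genes of G2/M transcription control, 6 were lower and 2 higher in normoxia. E2f4, a repressive E2F factor of the DREAM complex, fell from 196 and 223 CPM to 105 and 130 CPM (-0.84, adjusted p = 0.00073, edgeR) and was lower in hypoxia as well (-0.74, adjusted p = 0.0016). E2f5 fell by 0.95 and 1.13 in the 2 conditions, and E2f8 by 0.71 in normoxia. Rb1 and E2f1 were higher in normoxia, by 0.62 and 0.48. Mybl2, the B-Myb factor that joins the MuvB core at G2/M promoters, was among the 4 lower in hypoxia (-0.85, adjusted p = 0.0014, edgeR). In normoxia Mybl2 stood at 97.3 and 99.2 CPM in WT and at 53.4 and 70.6 CPM in FIH-KO cells. E2f8, E2f7 and Tfdp2 fell with hypoxia in both genotypes, but in FIH-KO cells E2f8 (-0.45) and E2f7 (-0.39) did not pass without FIH-KO hypoxia replicate 1. E2f4, E2f5 and Mybl2 were lower in FIH-KO hypoxia whichever of these libraries was left out.

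Of the 27 genes of CDK1 control and the APC/C, 5 were lower and 1 was higher in normoxia. Plk4, the kinase that starts centriole duplication, stood at 108 and 108 CPM in WT and at 50.2 and 54.7 CPM in FIH-KO normoxia (-1.04, adjusted p = 0.00021, edgeR), and was lower in hypoxia too (-0.84, adjusted p = 0.00082). Bora, a cofactor of Aurora A, was lower by 0.69 and 0.77 on the log2 scale, and Cks1b fell by 0.71 in normoxia. Anapc2, the cullin of the APC/C, was higher in FIH-KO cells in both conditions (0.42 and 0.72) and fell with hypoxia in both genotypes (-0.78 in WT and -0.47 in FIH-KO), though not in FIH-KO cells without FIH-KO hypoxia replicate 1 (-0.33). Plk4, Bora and Anapc2 passed for FIH-KO over WT in hypoxia whichever FIH-KO hypoxia library was left out.

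In the 20 genes of condensin and cohesin 7 were lower in normoxia and 4 in hypoxia, with none higher, among them Smc3, a cohesin subunit, at -0.64 and -0.61. In the 33 other kinetochore and checkpoint genes 6 were lower in each condition (18.2%, beside 13.0% and 13.9% of all tested genes). They were led by Trip13, the ATPase that takes the checkpoint complex apart, at -0.91 (adjusted p = 0.00036, edgeR) and -0.70 (adjusted p = 0.0019). Of the 21 other spindle and cytokinesis genes 4 were lower and 3 higher in normoxia (median -0.20), and 1 was lower and 3 were higher in hypoxia (0.19). Psrc1, a spindle protein, rose from 32.3 and 30.5 CPM to 70.4 and 63.4 CPM (1.09, adjusted p = 0.00013) and was higher by 1.26 in hypoxia, while Cep55, which recruits the abscission machinery, had values of -0.87 and -0.65. Smc3, Trip13 and Psrc1 passed in hypoxia whichever FIH-KO hypoxia library was left out, and Cep55 did not without replicate 1 (-0.39). Without FIH-KO hypoxia replicates 1 and 2 the medians in hypoxia were 0.08 and -0.48 for condensin and cohesin. They were 0.05 and -0.40 for the kinetochore list and 0.37 and -0.13 for the spindle list. For G2/M transcription control they were 0.06 and -0.36, and for CDK1 control and the APC/C 0.11 and -0.13. With hypoxia in WT cells Melk fell by 1.08 and Ncaph by 0.73.

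Cdkn1a, a p53 target that holds CDKs inactive, was measured beside the mitotic genes. It stood at 134 and 112 CPM in WT normoxia, 246 and 227 CPM in FIH-KO normoxia, 340 and 275 CPM in WT hypoxia, and 428 and 284 CPM in FIH-KO hypoxia. The log2 fold change of FIH-KO over WT was 0.94 in normoxia (SE 0.18, adjusted p = 0.0023, edgeR) and 0.21 in hypoxia (SE 0.18, adjusted p = 0.41). Hypoxia raised it by 1.32 in WT cells (SE 0.18, adjusted p = 0.00026) and by 0.59 in FIH-KO cells (SE 0.18, adjusted p = 0.039), and the difference between its FIH-KO effects did not pass (-0.73, adjusted p = 0.59). Without FIH-KO hypoxia replicates 1 and 2 the genotype value in hypoxia was -0.07 and 0.48 and the hypoxia value in FIH-KO cells was 0.29 and 0.85, and the second of each pair passed. Its part in the levels of the mitotic genes was not tested.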

How the data were processed

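RNA-Seq libraries were prepared from poly(A) RNA of LLC cells with a stranded kit and sequenced in pairs. Per the study's methods and the labels, the authors aligned reads with STAR to GRCm39 (the submitters' notes name GRCm38 as well) and used HTSeq to count them. What the authors deposited is a table of raw read counts per gene, without normalization. The annotation release and the strand setting of the counting are not given in the sources used here, so it is not known whether reads of overlapping or antisense genes were kept apart. The study compared groups with DESeq2.

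Starting from the counts, genes were filtered with filterByExpr by group and tested with edgeR's quasi-likelihood test (edgeR 4.0.16 in R 4.3.3). All 8 libraries entered 1 fit with a mean per group and TMM factors, leaving 4 residual degrees of freedom, and p values were adjusted by Benjamini-Hochberg over 13933 genes with a threshold of 0.05. The common biological coefficient of variation was 11.7%. CPM were computed with TMM-scaled library sizes. The fit was tested on simulated data. Alternatives were DESeq2 1.42.0, RLE and upper-quartile factors, other filters, fits on the 4 libraries of a comparison, a replicate block, and leaving out each library. Promoter windows were searched by exact letters and placed on GRCm39 by exact match.

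The 54 genes and all lists were chosen with earlier results of these data known. Named in each comparison were up to 8 called members in each direction by size of change, and in both genotype comparisons also Cdk1, Ccnb1, Plk1, Aurka, Aurkb, Cdc20, Cdca3, Bub1b, Top2a, Mki67 and Foxm1. Of the other lists, up to 3 called genes per list and direction could be named. Members beyond that were named after their values were seen.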

Additional observations from a re-analysis of the deposited data

How the results depend on the processing

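With 2 libraries per group and 4 residual degrees of freedom, counts of calls depended on single libraries more than on the scaling, and a gene that missed the threshold is not shown to be equal between groups. The share of all tested genes called also changed when 1 of the FIH-KO hypoxia libraries was left out. Leaving out each of the 8 libraries in turn, where a group left with 1 library is assumed to vary like the others, gave 0 to 1 genes higher and 6 to 29 lower in FIH-KO than in WT cells in normoxia (median log2 fold change -0.36 to -0.24), and 1 to 27 higher and 0 to 16 lower in hypoxia (-0.20 to 0.34). With hypoxia it gave 0 to 2 higher and 5 to 35 lower in WT cells (-0.39 to -0.31) and 1 to 15 higher and 0 to 16 lower in FIH-KO cells (-0.26 to 0.30). For the difference of the FIH-KO effects it gave 0 to 3 higher and 0 lower (0.0576 to 0.674).

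Among the other settings, no gene was higher in FIH-KO normoxia with DESeq2 or with no filter beyond 1 read (0 in each). With no filter beyond 1 read, 11 genes were higher in FIH-KO hypoxia, 6 rose with hypoxia in FIH-KO cells and 1 passed for the difference of the effects. In fits on only the 4 libraries of a comparison, 2 genes were lower in FIH-KO hypoxia, 3 rose and 35 fell with hypoxia in WT cells, and 1 rose and 0 fell in FIH-KO cells. These fits use fewer libraries or more genes, and the cause of the shifts was otherwise not tested. The other 92 counts and medians under these settings stayed within 1.5 times the main count or 1 SD.

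Sign changes occurred among genes that did not pass in the main fit with all 8 libraries. The genotype value of Plk1 in hypoxia was 0.00 with upper-quartile factors and with at least 10 counts in every library, 0.02 with no filter, 0.01 on 4 libraries, and 0.02 without each of the 4 normoxia libraries. Without FIH-KO hypoxia replicate 1 and replicate 2 the values in hypoxia were 0.02 and -0.40 for Aurkb, 0.25 and -0.27 for Plk1, 0.18 and -0.41 for Cdca3, 0.21 and -0.41 for Top2a, 0.32 and -0.15 for Aurka, 0.38 and -0.13 for Ccnb1, and 0.57 and -0.38 for Mki67. Without WT hypoxia replicate 1 Plk1 was at 0.04, and without WT hypoxia replicate 2 Top2a was at 0.06. Without FIH-KO or WT normoxia replicate 1, Bub1b was at -0.02 in normoxia.

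Samples with the same replicate number did not deviate together in every pair of groups (correlations of deviations from -0.01 to 0.19), so the numbers were not taken to pair the samples. Even so, Cdkn1a and most of the 11 HIF target genes were lower in replicate 2 of all 4 groups. A replicate block gave 1 gene higher and 21 lower in normoxia (median -0.28), with Cdca3 (adjusted p = 0.046, edgeR) and Top2a added among those named, 4 and 8 in hypoxia (0.08), 1 and 19 with hypoxia in WT cells (-0.31), 2 and 1 in FIH-KO cells (0.02) and 0 and 0 for the difference (0.34).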
